A study of Mus musculus with 6 samples.

Results

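The microglial and complement C1q transcripts of the mouse brain were followed through 9 genes, namely the complement chains C1qa, C1qb and C1qc, the receptors Csf1r and Cx3cr1, the adaptor Tyrobp, the lysosomal genes Ctss and Cd68, and Aif1. Every probe set that the platform annotation assigns to 1 of these gene symbols alone was taken, which gave 12 probe sets of 12422 on the array. They were measured in whole brain of 6 male C57BL/6J mice, each on its own one-colour Affymetrix array. The Ncam gene (Ncam1), the source of the neural adhesion protein NCAM, was knocked out constitutively in 3 animals, and the other 3 carried it intact on that same background. Each genotype (n = 3) held a pair of mice aged 2 months, numbered 1 and 2, and a mouse aged 3 months, numbered 3. The knockout is not limited to a cell type or an age.

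Microglia are the resident macrophages of the brain and arise from yolk sac progenitors. They depend on signalling through the receptor Csf1r, sense neurons through the chemokine receptor Cx3cr1, and are a main source of C1q in the brain. C1q is built from A, B and C chains, starts the classical complement pathway when it binds antibodies or other tagged surfaces, and marks synapses for removal during development. Because whole brain was hybridised, fewer microglia and less RNA per microglial cell cannot be told apart in these values.

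The 3 C1q genes lie next to each other on chromosome 4, within 18.7 kb (GRCm38.p6, positions 136880126 to 136898844). For 6 of the 9 genes a 300-base window around the start was read from the RefSeq table of that build, and Csf1r, C1qa and Tyrobp are named only. The letters AGGAAG, the core bound by PU.1 (the product of Spi1, a transcription factor of macrophages and microglia), occurred on either strand in 3 of these 6 windows and in 35.4% of all 32851 windows. The longer form GAGGAAGT, which contains that core, occurred in 2 of the 6, C1qc and Ctss, and in 3.2% of all windows. The Ctss match runs across the start. Within the 250 upstream bases alone, AGGAAG occurred in 2 of the 6 and in 29.5% of all windows. There GAGGAAGT occurred in 1 of the 6 and in 2.44% of all. Stretches upstream of the start are given for C1qb and C1qc, as the neighbouring pair with matches there, 5′ to 3′ in the direction of transcription, with matches to either form in capitals.
C1qb, chr4:136886232-136886267, minus strand: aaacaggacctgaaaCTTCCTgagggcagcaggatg
C1qc, chr4:136893051-136893124, minus strand: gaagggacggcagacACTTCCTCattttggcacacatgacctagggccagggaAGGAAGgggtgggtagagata
A match of letters is a description of the sequence and was not tested as a binding site. Spi1 itself read 64.3 to 119.5 across the 6 brains, with a log2 difference of 0.0028 ± 0.21 (SE).

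Arrays carried the same overall scaling, with median signals between 119.4 and 130.7. The targeted gene checked the labels: the brightest Ncam1 probe set gave signals of 209 to 327 without and 1216 to 1448 with the intact gene. Knockout replicate 2 stood apart by a low cerebellar signal (a summed signal of 4543 over 9 genes, against 12108 to 13556 on the other arrays). Knockout replicate 1 stood apart by a high pituitary signal (15816 over 8 genes, against 985 to 1401). The 3' to 5' ratio of the Gapdh control, a sign of RNA quality, ran from 0.811 to 0.826 over the knockout arrays. It ran from 0.768 to 0.798 over the wild-type ones, with no overlap. The same ratio of the actin control overlapped, at 1.145 to 1.223 over the knockout and 1.084 to 1.196 over the wild-type arrays. Summed signals of the lists for astrocytes, neurons, endothelium, red blood cells, and border macrophages and blood leukocytes overlapped between genotypes, and those of oligodendrocytes and pituitary did not. The part of these differences in the results below was not tested, except where values without an animal are given.

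**Figure D1:**
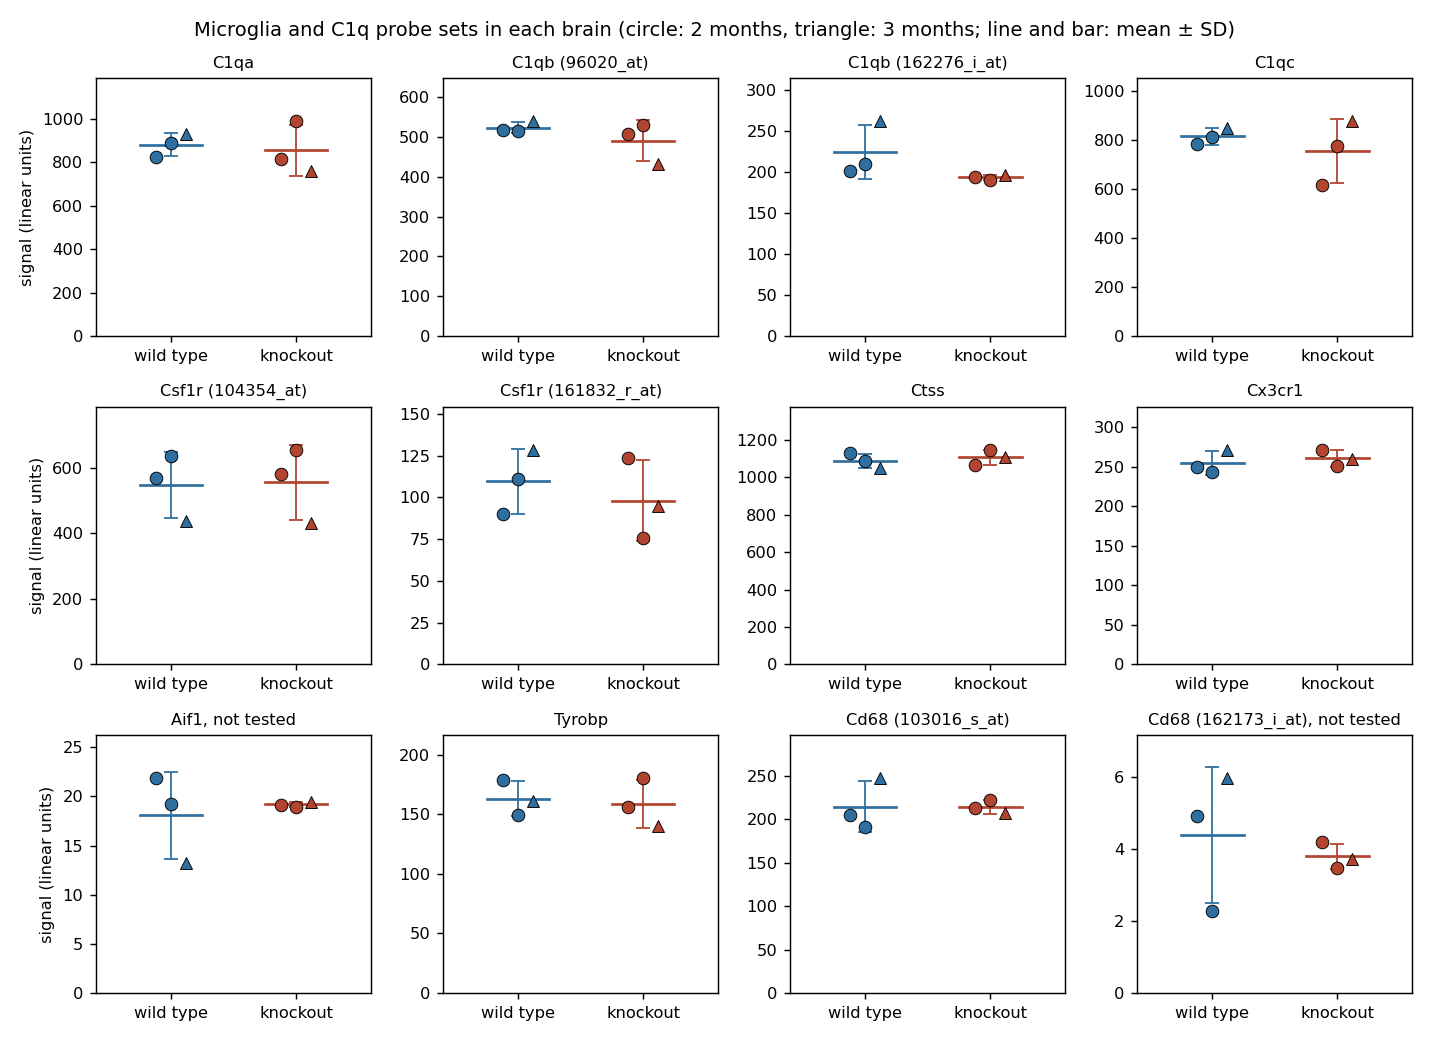
Signal (linear units, axis from 0) of each of the 12 probe sets in the 3 wild-type (blue) and 3 knockout (red) brains, with circles for 2 and triangles for 3 months of age, and lines and bars for the mean ± SD. The genotypes overlap in every panel except that of the second C1qb probe set, and the triangles of the brighter Csf1r probe set lie below all its circles.

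No microglial or C1q probe set passed the test of knockout against wild-type brains. Of the 12 probe sets 10, covering 8 of the 9 genes, were bright enough to be tested (a mean signal of about 72.2 or more), and 0 of these 10 were called at an adjusted p under 0.05 in limma, where 0.0268% of all 7453 tested probe sets were called. At an unadjusted p under 0.05 in limma 0 of 10 were found, where 6.94% of all were. The adjusted p ran from 0.788 to 0.996, and 4 probe sets were higher and 6 lower in knockout by their means. With 1 probe set per gene, the median log2 difference was -0.016 over the 8 tested genes and 0.0053 when the dim Aif1 was included, against -0.0016 over all 5665 tested genes.

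The C1q genes had slightly lower means in knockout brains, within the spread of the animals. C1qa, the A chain, read 817, 989 and 762 in knockout replicates 1, 2 and 3 and 824, 889 and 930.2 in the wild-type replicates. The highest and the 2 lowest values were all knockout, so the groups overlapped, with means of 856 ± 119 (SD, n = 3) and 881 ± 53.6. The log2 difference was -0.048 ± 0.11 (SE), with a 95% interval of -18.0% to 14.2% (adjusted p = 0.940 in limma). Its sign depended on the animals: the difference was 0.031 without knockout replicate 3, 0.070 among the 2-month-old animals alone and -0.15 without knockout replicate 2.

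C1qb, the B chain, read 508, 531 and 433 in knockout brains against 517, 514 and 539 in wild-type brains by its brighter probe set. Knockout replicate 3 lay below the other 5 animals, and the groups overlapped (log2 -0.096 ± 0.097, 95% interval -19.7% to 8.99%, adjusted p = 0.849 in limma). Without knockout replicate 3 the log2 difference was -0.011, among the 2-month-old animals alone it was 0.0095, and without knockout replicate 2 it was -0.15. A second C1qb probe set, of a kind that uses an incomplete set of probes, read 194, 189.7 and 196 against 200.4, 210.0 and 261. Its groups did not overlap, the 1 such case among the 10 tested probe sets, where 12.9% of all tested probe sets had no overlap. The separation was narrow between knockout replicate 3 and wild-type replicate 1, and 3-month-old wild-type replicate 3 lay far above the rest (log2 -0.19 ± 0.12, 95% interval -27.8% to 6.48%, adjusted p = 0.788 in limma). Without wild-type replicate 3 the log2 difference was -0.081.

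C1qc, the C chain, read 617, 773 and 876 in knockout brains against 783, 810.1 and 849.5 in wild-type brains. Knockout replicate 1 was the lowest of all 6 and knockout replicate 3 the highest, so the knockout animals spanned the wild-type range (log2 -0.12 ± 0.12, 95% interval -23.9% to 11.3%, adjusted p = 0.849 in limma). Without knockout replicate 1 the log2 difference was 0.016, and without knockout replicate 3 it was -0.23.

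As one value per animal, the mean log2 signal of the 3 C1q genes came to 9.35, 9.56 and 9.40 for the knockout animals, against 9.47, 9.52 and 9.59 for the wild-type animals. Knockout replicates 1 and 3 were below every wild-type animal and knockout replicate 2 was not. The difference of -0.088 gave p = 0.3 in an exact two-sided permutation test, where 0.1 is the smallest p that 3 against 3 animals can give. The 3 chains did not share 1 order of the knockout animals: against the wild-type mean, knockout replicate 1 was at -0.10, -0.042 and -0.39 for C1qa, C1qb and C1qc on the log2 scale. Knockout replicate 3 was at -0.20, -0.27 and 0.10. Among wild-type animals, whose own mean is the reference, the 3 chains stayed within -0.093 and 0.079. The 2 ranges are therefore not like measures of spread.

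**Figure D2:**
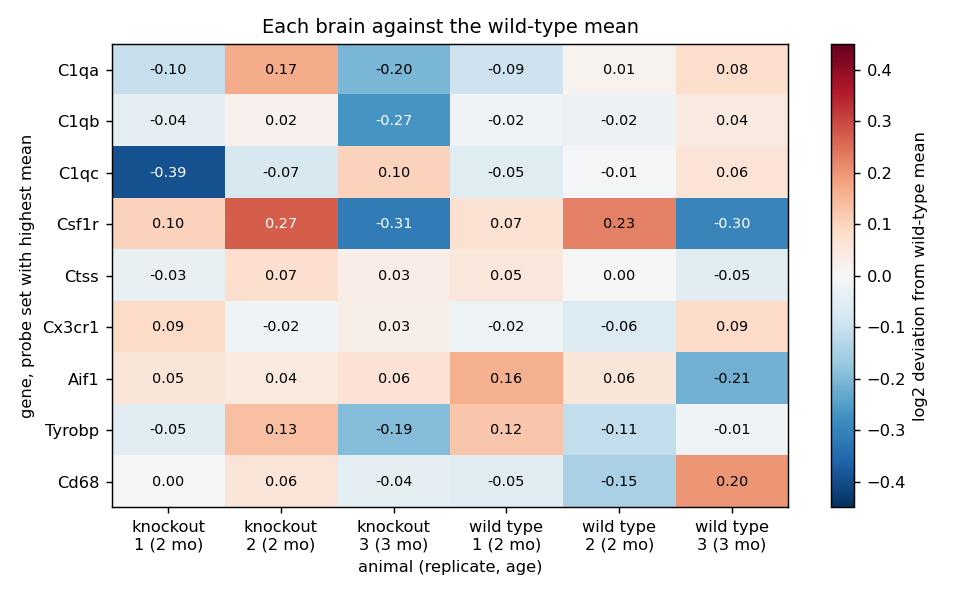
Log2 deviation of each brain from the mean of the wild-type brains, for the probe set with the highest mean of each of the 9 genes (rows) and the 6 animals (columns), with red for higher and blue for lower. The lowest value sits in knockout replicate 3 for C1qa (-0.20), C1qb (-0.27), Csf1r (-0.31) and Tyrobp (-0.19). For the other genes it sits in other animals, such as knockout replicate 1 for C1qc (-0.39). Csf1r is also low in 3-month-old wild-type replicate 3 (-0.30).

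The surface receptors and the adaptor had no called difference either. Csf1r, the receptor for the survival factors Csf1 and Il34, read 581, 654 and 431 in knockout brains against 567, 634 and 436 in wild-type brains by its brighter probe set. The values of the 2 groups nearly coincided, with 1 low animal in each (log2 0.021 ± 0.17, 95% interval -22.7% to 33.1%, adjusted p = 0.991 in limma). A dim, less specific Csf1r probe set read 124, 75.5 and 94.7 against 89.8, 111 and 128, in another order of animals (log2 -0.15 ± 0.20, 95% interval -34.0% to 22.8%, adjusted p = 0.886 in limma).

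Cx3cr1, the fractalkine receptor that marks resident microglia, read 271, 251 and 259 in knockout brains against 249.9, 243 and 271 in wild-type brains. All 6 animals lay within a 1.12-fold range (log2 0.031 ± 0.099, 95% interval -12.5% to 19.3%, adjusted p = 0.967 in limma). Tyrobp, the adaptor that carries the signal of Trem2 and related receptors, read 157, 180.4 and 140.3 against 179, 149.9 and 161. Its groups overlapped over most of their range (log2 -0.037 ± 0.13, 95% interval -21.0% to 20.3%, adjusted p = 0.970 in limma).

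The lysosomal genes had differences close to 0. Ctss, a cysteine protease of macrophage lysosomes, read 1064, 1147 and 1109.9 in knockout brains against 1128, 1086 and 1051 in wild-type brains. It varied by 3.40% (coefficient of variation) over the 6 animals, the lowest of the 12 probe sets, where the median over all tested probe sets was 10.98%. Its log2 difference was 0.024 ± 0.070, and the 95% interval of -8.92% to 13.5% was the narrowest among the 10 tested probe sets (adjusted p = 0.961 in limma). Cd68, a glycoprotein of late endosomes and lysosomes used as a marker of phagocytes, read 213, 223 and 207 against 205, 191 and 248. The wild-type animals spread on both sides of the knockout animals (log2 0.0053 ± 0.12, 95% interval -17.0% to 21.4%, adjusted p = 0.996 in limma). This Cd68 probe set is of a less specific kind, and another read 2.28 to 5.95 on every array and was not tested.

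Aif1, which encodes the calcium-binding protein Iba1 used to stain microglia, was dim on these arrays. It read 19.2, 19.0 and 19.4 in knockout brains against 21.8, 19.3 and 13.2 in wild-type brains and was not tested. Some other genes of the lineage were dim as well. Itgam, a subunit of complement receptor 3, read 17.1 to 22.8, and 3 probe sets of Ptprc, the leukocyte marker CD45, read 0.832 to 17.5. Others were not: of 31 further listed microglial genes on the array, 15 were bright enough to be tested and 16 were not. Selplg and Coro1a were the brightest of these, at 451 to 570 and 455 to 532. Mrc1 and Lyve1, markers of border macrophages, were dim in both groups, at 24.9 to 44.96 and 7.27 to 32.5. Aif1 and Itgam were dimmer still than Mrc1, so a dim marker does not show that its cells were absent. A share of border macrophages in the signals was not tested. With Aif1 dim, the microglial label of the 9 genes rests, on these arrays, on the other 8.

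**Figure D3:**
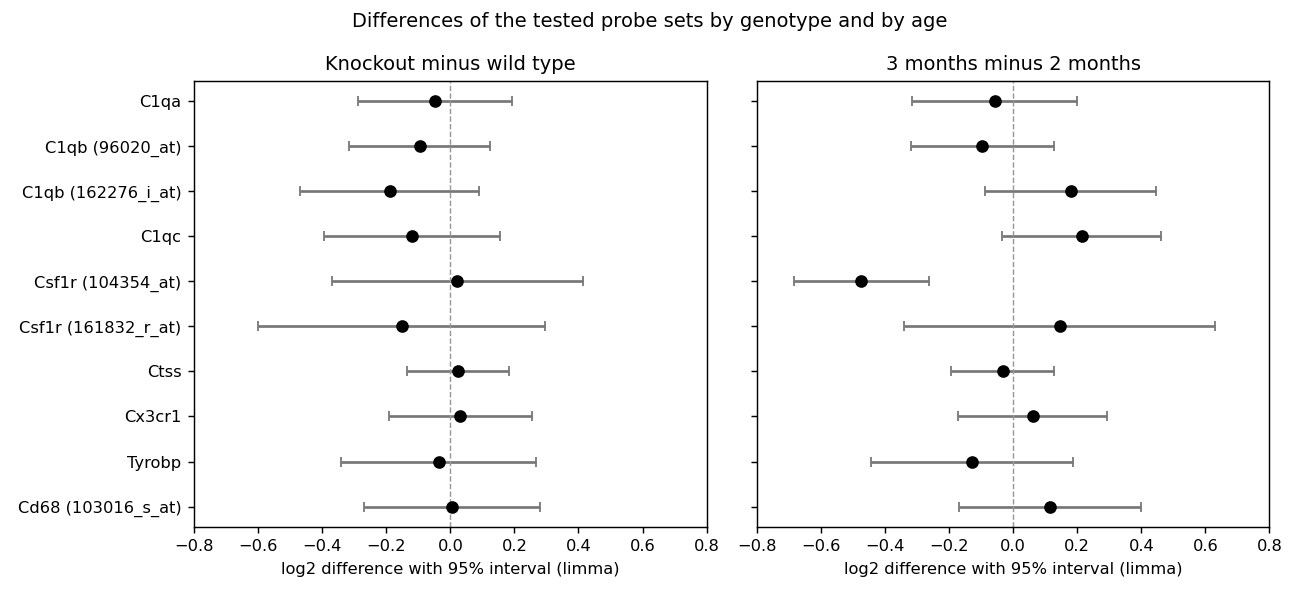
Log2 differences (horizontal axis) of the 10 tested probe sets with their 95% intervals from limma, for knockout minus wild type (left) and 3 minus 2 months of age with genotype in the fit (right). Every interval on the left crosses 0, and on the right that of the brighter Csf1r probe set, at -0.47, does not.

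Age was set against the same probe sets because each genotype held 2 animals of 2 months and 1 of 3 months. With genotype and age in 1 fit, 0 of 10 probe sets were called at an adjusted p under 0.05 in limma, where 0.0268% of all tested probe sets were called. The brighter Csf1r probe set read 581, 654, 567 and 634 at 2 months and 431 and 436 at 3 months, so the ages did not overlap and both genotypes gave lower values at 3 months. The log2 difference was -0.47 ± 0.091 (SE), with an unadjusted p of 0.00084 and an adjusted p of 0.230 in limma, and it did not pass. It was the 1 of 10 at an unadjusted p under 0.05, where 12.4% of all tested probe sets were. The dim Csf1r probe set gave 0.14 ± 0.21 in the same fit, so the 2 probe sets of the gene had opposite signs.

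C1qc was the other probe set whose ages did not overlap, with 617 to 810.1 at 2 months and 876 and 849.5 at 3 months (log2 0.21 ± 0.11, adjusted p = 0.456 in limma). Such a lack of overlap was found in 2 of 10 probe sets and in 21.7% of all tested ones. C1qa and the brighter C1qb probe set were lower at 3 than at 2 months in knockout and higher in wild-type animals. The difference between the genotypes in the effect of age was -0.35 ± 0.20 for C1qa and -0.32 ± 0.16 for C1qb on the log2 scale (adjusted p = 0.877 and 0.857 in limma). In that test 0 of 10 probe sets were called, where 0.0268% of all were, and 0 of 10 had an unadjusted p under 0.05, where 5.7% of all did. It rests on 1 animal of 3 months in each genotype and was chosen after the values were seen.

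Partners of the 9 genes had no called difference in 5 tested genes of 9 listed, of which 6 were on the array. By their means 1 was higher and 4 were lower, and 1 was at an unadjusted p under 0.05 in limma. Of all 5665 tested genes, 1 was called lower, the deleted Ncam1 itself, and 0 were called higher. Of the same genes 384 were at an unadjusted p under 0.05 in limma, and 726 had no overlap. The counts of this list and of those below are to be read beside these. Cx3cl1, the neuronal ligand of Cx3cr1, read 6142, 7199 and 6452 in knockout brains against 5981, 6038 and 5569.6 in wild-type brains. All 3 knockout values were above all wild-type values, yet the test did not pass (log2 0.17 ± 0.068, unadjusted p = 0.035, adjusted p = 0.719 in limma), and a less specific probe set overlapped (0.14 ± 0.21). Csf1, a ligand of Csf1r, read 239 to 274 against 253 to 295 (log2 -0.11 ± 0.11). Syk, the kinase recruited by Tyrobp, gave -0.13 ± 0.16, and Serping1, the inhibitor of the C1 proteases, -0.31 ± 0.22. A second Syk probe set read 3.915 to 5.708 and was not tested. Cst3, cystatin C, an inhibitor of cysteine cathepsins such as Ctss, gave -0.061 ± 0.062 by its bright probe set and 0.25 ± 0.097 by a dimmer one whose groups did not overlap (adjusted p = 0.849 and 0.719 in limma). Cst7 was at 11.6 to 17.8 and was not tested.

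The rest of the complement system had 0 called genes among 9 tested of 42 listed, with 4 higher and 5 lower by their means (median log2 difference -0.051). Of the 9, 0 were below an unadjusted p of 0.05 (limma), against 384 of all 5665 tested genes. Serping1 is counted here as well as among the partners, and Itgax here as well as among the activation genes below. The lowest p after Serping1 belonged to C8g, a subunit of the membrane attack complex, at 0.22 ± 0.23, and Itgax, a subunit of complement receptor 4, at -0.17 ± 0.19. Clu, clusterin, an inhibitor of the terminal complex, read 2967, 3249 and 3111 against 3331, 3177 and 3153 (log2 -0.051 ± 0.059). Vtn, vitronectin, gave -0.088 ± 0.18. A further 20 genes of the list were on the array below the brightness limit.

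Further microglial genes also had 0 called members, among 15 tested of 48 listed, with 9 higher and 6 lower by their means (median log2 difference 0.036). Of the 15, 1 was below an unadjusted p of 0.05 (limma), against 384 of all 5665 tested genes. In 1 of the 15 the genotypes did not overlap, against 726 of all 5665. Vav1, a signalling protein of blood cells, had the lowest p, with 63.4, 97.7 and 55.9 in knockout against 112, 105 and 119.8 in wild-type brains. The groups did not overlap, but the probe set is of a less specific kind, the values lay near the brightness limit, and the test did not pass (log2 -0.56 ± 0.20, adjusted p = 0.665 in limma). The other Vav1 probe sets, too dim to be tested, differed from it: one overlapped at 47.9 to 75.9 (log2 0.022), and the other read 10.4 to 19.0 in knockout against 5.35 to 8.64 in wild-type brains, with knockout higher (log2 0.33). Mpeg1, a pore-forming protein of macrophages, gave -0.32 ± 0.16 and Cd37, a leukocyte tetraspanin, 0.25 ± 0.15. Selplg, the selectin ligand, read 451 to 569.6 against 509 to 528 (-0.037 ± 0.10), and Coro1a, an actin regulator of leukocytes, gave -0.048 ± 0.092.

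Genes of lysosomes and phagocytosis had 0 called among 21 tested of 29 listed, with 8 higher and 13 lower by their means (median log2 -0.045). Of the 21, 2 were below an unadjusted p of 0.05 (limma), against 384 of all 5665 tested genes. In 2 of the 21 the genotypes did not overlap, against 726 of all 5665. Lamp1, an abundant lysosomal membrane protein, read 2865, 2662 and 2732 in knockout brains against 3205, 3079 and 3061 in wild-type brains with no overlap (log2 -0.18 ± 0.057, adjusted p = 0.619 in limma). Ctsh, a lysosomal aminopeptidase, also had no overlap, at 82.7 to 91.4 against 107 to 123 (-0.33 ± 0.14, adjusted p = 0.719 in limma). Ctsz gave -0.18 ± 0.14 and Psap, the precursor of the saposins, gave -0.096 ± 0.083 by its brightest probe set and 0.059 ± 0.10 and -0.043 ± 0.093 by the others.

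Genes that rise when microglia are activated had 0 called among 6 tested of 30 listed, with 1 higher and 5 lower by their means (median log2 -0.099). Of the 6, 1 was below an unadjusted p of 0.05 (limma), against 384 of all 5665 tested genes. H2-Eb1, a class II histocompatibility chain, read 124, 133 and 53.7 in knockout brains against 114, 249 and 196 in wild-type brains, with overlap (log2 -0.78 ± 0.33, adjusted p = 0.719 in limma). Lpl gave 0.26 ± 0.16, Apoe, which is mainly astrocytic in the healthy brain, -0.082 ± 0.097 and B2m -0.090 ± 0.11. The cytokines Il1b and Tnf read 3.14 to 10.5 and 11.2 to 19.2, and were not tested.

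**Figure D4:**
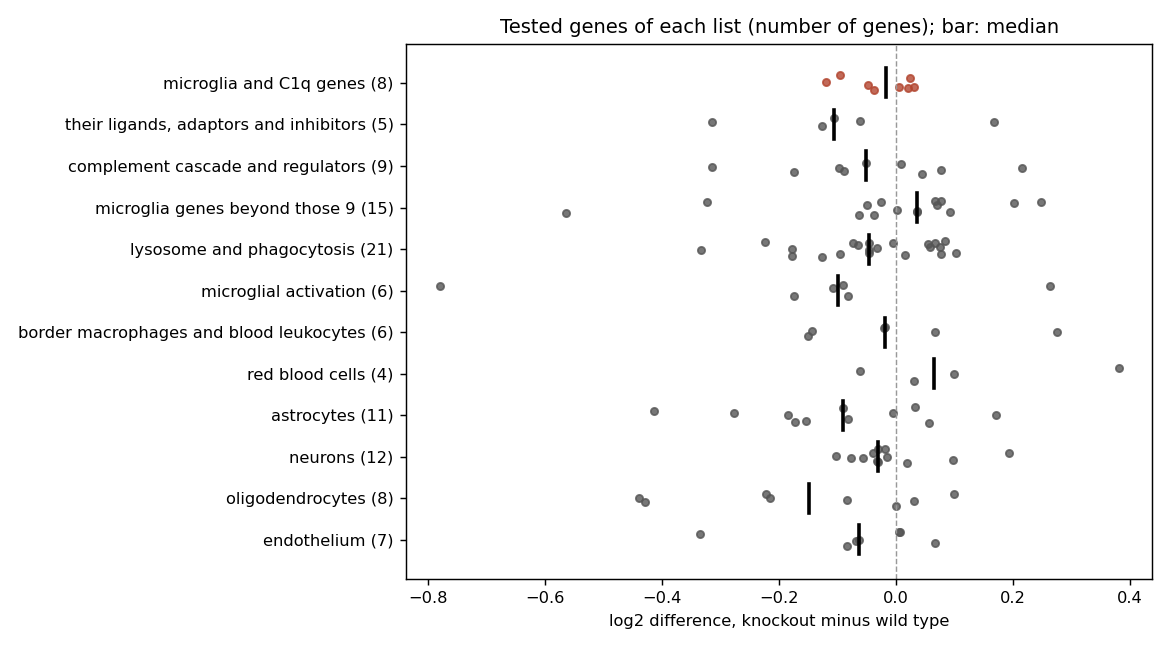
Log2 difference between knockout and wild-type brains (horizontal axis) for each tested gene of 12 gene lists (rows, number of tested genes in brackets), with 1 point per gene and a bar at the list's median. The 8 tested microglia and C1q genes (red) lie between -0.12 and 0.031.

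The genes whose profile over the 6 arrays lay closest to the mean of the 3 C1q genes were Copg1, Hax1, Cope and Cst3, out of 5657 tested genes. Each gene stood by its brightest probe set. A second Copg1 probe set had another order of animals, at 773, 748 and 705 in knockout against 768, 758 and 849 in wild-type brains. The dimmer Cst3 probe set was higher in all knockout than in all wild-type brains, also unlike the C1q mean. Closeness was the root mean square difference between log2 profiles, each centred on its own mean over the 6 brains, and it was 0.017, 0.019, 0.025 and 0.027 for these 4 genes. The C1q profile itself had a root mean square deviation of 0.085 and the median distance of all genes was 0.16, so the profile is shallow. The chains C1qa, C1qb and C1qc were at 0.069, 0.083 and 0.13 from their own mean, and Csf1r, at 0.24, was the farthest of the 9 genes.

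Knockout replicate 2, the brain with the low cerebellar signal, had the highest C1qa, Ctss and Tyrobp values of all 6 animals, and the highest Csf1r value by the brighter probe set. It had the lowest values of all 6 by the second C1qb probe set (189.7) and the dim Csf1r probe set (75.5), and the lowest knockout value of Cx3cr1 (251). Without knockout replicate 2 the log2 difference of the brighter Csf1r probe set was -0.10 and the median over the 9 genes -0.10, while without knockout replicate 3 they were 0.19 and 0.031. None of the 10 probe sets was called without knockout replicate 2. Knockout replicate 3 had the lowest C1qa and Tyrobp values of all 6 animals, and the lowest C1qb and Csf1r values by the brighter probe sets. The 9 signals summed to 4247, 4767 and 4237 over knockout replicates 1, 2 and 3, against 4475, 4537 and 4498 over the wild-type replicates, so knockout replicates 1 and 3 lay below and knockout replicate 2 above all wild-type animals.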

How the data were processed

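Per the labels' protocols, total RNA of each brain was extracted, and biotinylated cRNA was hybridised to 1 array per animal. The deposited values are linear signal intensities of 12488 entries per array, and the submitters' processing notes name GCOS 1.4. Scaling by the authors is inferred from the values alone: on every array the middle 96% of values averaged between 299.948 and 299.952. The 66 control entries were set aside.

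Values were transformed as log2(signal + 16), which understates folds of dim genes, and the 7453 probe sets with a mean at or above the 40th percentile were kept. Genotypes were compared in limma 3.58.1 under R 4.3.3 with lmFit and a trended eBayes, two-sided. Benjamini-Hochberg adjustment ran over every kept probe set, with 0.05 as the threshold. Age was a second term in its own fit. Intervals are limma's, unadjusted. The procedure was checked on simulated data. High recovery was required there only for the largest planted change, far above any difference of the microglia and C1q genes.

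The platform annotation gave 10833 probe sets 1 symbol, 396 several and 1193 none, and all 9 genes were matched to RefSeq by Entrez identifier. For gene lists the probe set with the highest mean stood for a gene. Members and lists were chosen with earlier results of these data known. The rule for named genes takes all probe sets of the 9 genes and their partners, the 3 lowest p and 2 highest signals of each related list, and the 4 profiles nearest C1q. It also takes Ncam1 and the brightest gene of each other list, of which only Apoe is given above. Spi1, Itgam, Ptprc, Mrc1, Lyve1, Il1b and Tnf were named after their values were seen. Alternatives were other samples, the replicate block, age, normalisation, pseudocount, filter and variance settings. Figures were drawn with matplotlib 3.10.9.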

Additional observations from a re-analysis of the deposited data

How the results depend on the processing

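The count of called microglia and C1q probe sets stayed at 0 under all 18 alternatives for genotype and all 14 for age. The sign of the difference turned under at least 1 of these alternatives in 9 of 10 probe sets for genotype and in 6 of 10 for age. The log2 difference of the brighter Csf1r probe set with age ran from -0.54 to -0.43 (adjusted p 0.159 to 0.611 in limma). The C1q mean differed by -0.10 to -0.081 under 4 alternatives (exact permutation p 0.3 to 0.4). The median difference over the 9 genes, 0.0053, ran from -0.10 (without knockout replicate 2) to 0.031 (without knockout replicate 3) when 1 animal was left out. It was -0.042 without knockout replicates 1 and 2 together, so its sign is not settled. Deviations of animals with the same replicate number correlated at 0.015, 0.15 and 0.20, so the numbers were not taken as pairs. With the replicate block the median was 0.0053 and 0 probe sets were called. Precision is limited by the number of arrays, and dim probe sets, Aif1 among them, could not be tested. Leaving out an animal leaves 2 in a group, and the fits without 2 animals assume the lone knockout varies like the wild type.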
